A study of Rattus norvegicus with 15 samples.

Results

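The 6 genes described here make, package, clear and sense GABA, the main inhibitory transmitter of the adult brain. They are Gad1, Gad2, Slc32a1, Slc6a11, Gabbr1 and Gabbr2. Members were found by matching the RefSeq transcript records in the count files to these rat symbols, which gave 1 record for each gene. They are 6 of 18278 records, of which 17339 have a symbol.

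GABA is made from glutamate by the decarboxylases encoded by Gad1 and Gad2. The vesicular transporter encoded by Slc32a1 loads it into synaptic vesicles, also loading glycine in neurons that release it. After release, GABA is cleared by plasma membrane transporters, among them GAT-3, encoded by Slc6a11 and found mainly on astrocytes. Its slow, metabotropic action runs through the GABA-B receptor, which needs both the subunit encoded by Gabbr1, which binds GABA, and the subunit encoded by Gabbr2, which couples to G proteins. In the hippocampus GABA is released mainly by interneurons, while in thalamus, midbrain and striatum it is also released by projection neurons.

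The study stimulated the vagus nerve of rats through an implanted device and sequenced brain RNA. Hippocampal VNS rats received 30 min of stimulation on each of 4 days and were tested for novelty preference, for 10 min a day, from day 2 to day 4. They gave 4 libraries. Hippocampal control rats carried a sham device, performed the same task and gave 3 libraries. Cortex libraries came from 4 VNS rats stimulated on the same schedule and from 4 control rats, which carried a sham device. Brains were taken right after the stimulation on the last day. Strain, sex and age are not stated in the labels used here. PolyA selection was used for the cortex and depletion of ribosomal RNA for the hippocampus, so levels were not compared between the tissues. Nothing in the labels ties libraries to litters or days, so the p-values measure only the spread between these libraries.

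Hippocampal libraries held 16728486 to 51463555 counts and cortex libraries 329130 to 435296. In VNS library 3 of the hippocampus, 74.3% of the counts fell in ribosomal and 7SL RNA records, so this library rests on fewer reads of the 6 genes than the others. The hippocampal control libraries did not all match their labelled tissue. Neurod6 encodes a transcription factor that marks excitatory neurons of the forebrain. It was found at 207.4, 58.9, 125.0 and 105.4 CPM (reads of a record relative to the library's TMM-scaled total, so that libraries of unequal depth can be compared) in VNS libraries 1 to 4. In control libraries 1 to 3 it was at 0.65, 1.05 and 81.4 CPM. Slc17a7, the vesicular glutamate transporter of hippocampal and cortical neurons, was at 1006 to 1540 CPM in the VNS libraries, and at 237.2, 4.09 and 1103 CPM in control libraries 1 to 3. Slc17a6, its counterpart in most glutamate neurons of thalamus and brainstem, was at 10.0 to 66.8 CPM in the VNS libraries, and at 379.7, 347.4 and 36.9 CPM in control libraries 1 to 3. Control libraries 1 and 2, the libraries with Neurod6 under 5 CPM, thus held little of the signal of hippocampal excitatory neurons, and the fold changes, ratios and list medians of the hippocampus are also given without them.

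Sequence before the annotated start is shown for the 4 genes of synthesis and transport. On the log2 scale their values varied most over all hippocampal libraries together, though not within the VNS libraries alone. Each sequence is the 250 bases before the gene's start in RefSeq, build GRCr8, read 5′ to 3′ on the gene's strand. These are chr3:75777202-75777451 for Gad1, chr17:89671468-89671717 for Gad2, chr3:167686995-167687244 for Slc32a1 and chr4:148853307-148853556 for Slc6a11, each on the plus strand of that build. Capitals mark the matches, on either strand, to TATAAA (the TATA box), CANNTG (the E-box), TAATTA (a homeodomain core), TGACG (the core of a cyclic AMP response element) and CCGCCC (a GC box). No matches overlapped each other.
Gad1: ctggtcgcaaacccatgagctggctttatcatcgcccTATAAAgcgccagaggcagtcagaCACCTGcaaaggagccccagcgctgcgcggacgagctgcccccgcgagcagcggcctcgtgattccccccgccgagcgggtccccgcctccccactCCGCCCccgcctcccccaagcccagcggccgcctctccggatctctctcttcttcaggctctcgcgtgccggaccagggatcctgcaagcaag
Gad2: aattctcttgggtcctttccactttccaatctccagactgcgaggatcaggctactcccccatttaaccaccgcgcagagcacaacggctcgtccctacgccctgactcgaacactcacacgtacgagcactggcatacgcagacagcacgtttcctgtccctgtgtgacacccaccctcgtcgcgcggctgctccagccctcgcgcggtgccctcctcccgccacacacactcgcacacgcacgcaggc
Slc32a1: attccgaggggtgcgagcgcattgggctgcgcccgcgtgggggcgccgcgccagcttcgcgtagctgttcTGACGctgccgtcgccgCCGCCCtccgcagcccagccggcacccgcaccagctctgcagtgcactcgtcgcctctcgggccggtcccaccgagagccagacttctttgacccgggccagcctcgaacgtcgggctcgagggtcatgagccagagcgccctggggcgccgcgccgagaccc
Slc6a11: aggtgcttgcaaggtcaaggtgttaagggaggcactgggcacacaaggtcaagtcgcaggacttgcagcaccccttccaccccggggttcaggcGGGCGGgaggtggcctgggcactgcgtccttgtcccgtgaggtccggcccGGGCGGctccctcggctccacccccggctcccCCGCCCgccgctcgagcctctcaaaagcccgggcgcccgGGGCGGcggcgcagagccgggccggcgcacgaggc

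The Gad1 window held a TATAAA match at position -213, a CANNTG match at -189 and a CCGCCC match at -93, counted from the base before the start as -1. The Gad2 window held none of the 5 motifs. The Slc32a1 window held TGACG at -180 and CCGCCC at -163. The Slc6a11 window held 4 CCGCCC matches, first at -156 and last at -35, and none of the other motifs. Over 33469 rat promoter windows of the same length, 12.9% held TATAAA, 65.5% CANNTG, 4.86% TAATTA, 18.2% TGACG and 30.5% CCGCCC. GC content was 68.4% for Gad1, 62% for Gad2 and 73.6% for both transporter genes. These matches describe letters in the windows, and no readout of factor binding or chromatin was part of the data.

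In the hippocampus, the genes of GABA synthesis and transport had lower mean levels in VNS than in control libraries, and the subunits of the GABA-B receptor had nearly equal ones. Slc6a11 differed most, at 77.9 ± 30.1 CPM in VNS libraries and 314.4 ± 238.8 CPM in control libraries (SD, n = 4 and 3). None of the 6 passed the edgeR quasi-likelihood test adjusted over all 12728 records tested. No record did (0% of records), and the smallest adjusted p was 0.40. All 6 had a negative log2 fold change (VNS over control), as had 50.8% of all records, and their median was -0.66 against -0.0068 over all records. An unadjusted p under 0.05 was found for 2 of the 6, Slc32a1 and Slc6a11, and for 12.1% of all records (7.28% with VNS lower). VNS and control libraries overlapped for each of the 6, whereas they did not overlap for 9.28% of records. Control libraries 1 and 2 held the highest values of the 4 synthesis and transport genes.

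**Figure D1:**
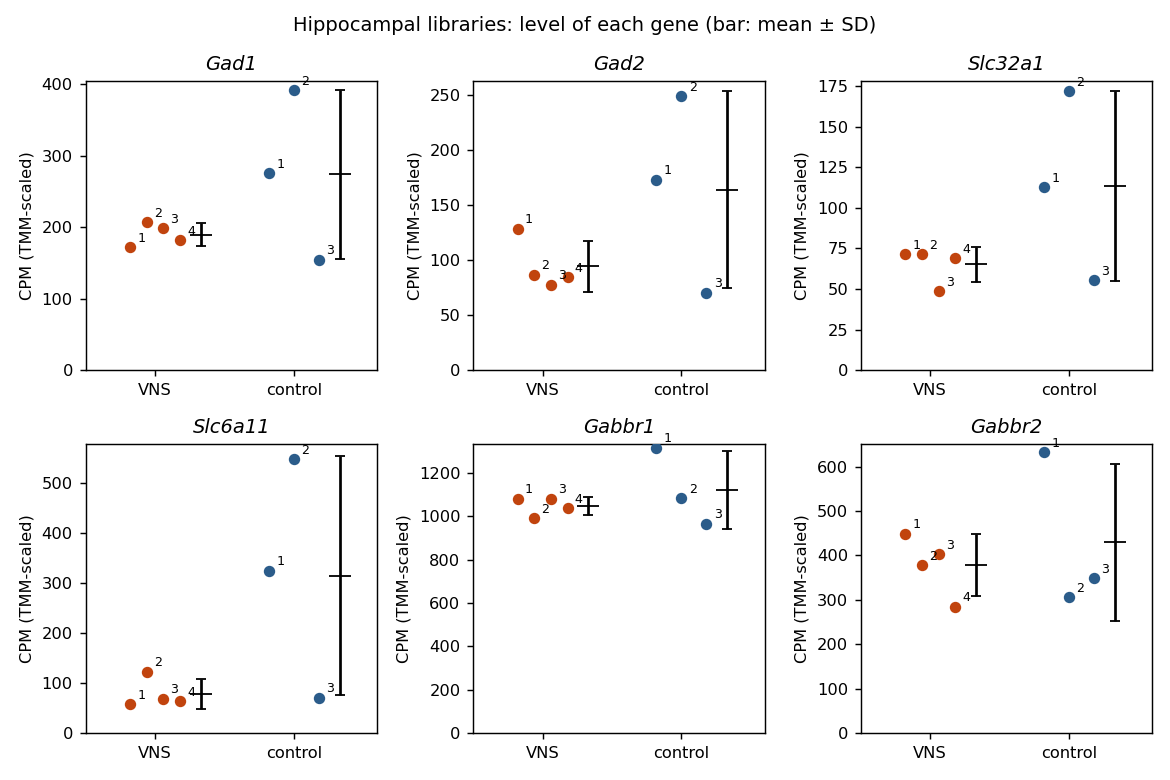
Level of each of the 6 genes in the 7 hippocampal libraries, in CPM, with VNS libraries in red and control libraries in blue. Points are libraries with their number and bars are the mean ± SD (n = 4 VNS and 3 control). Control libraries 1 and 2 lie above every VNS library for Gad1, Gad2, Slc32a1 and Slc6a11, and control library 3 lies near or below the VNS libraries.

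Gad1, which encodes the decarboxylase that supplies most GABA for general use in the neuron, is a record of 17 exons on chromosome 3, from 63479963 to 63519879 on the plus strand of rn5. It measured 172.0, 207.2, 198.8 and 181.9 CPM in VNS libraries 1 to 4, against 276.0, 392.1 and 154.8 CPM in control libraries 1 to 3. Control libraries 1 and 2 were above every VNS library and control library 3 was below every one. The mean was 190.0 ± 16.0 CPM in VNS libraries and 274.3 ± 118.6 CPM in control libraries (SD, n = 4 and 3). The log2 fold change was -0.53 (SE 0.28, adjusted p = 0.42, edgeR quasi-likelihood test).

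Gad2, which encodes the decarboxylase enriched at nerve terminals, is a record of 16 exons on chromosome 17, from 90851699 to 90914891 on the plus strand. It measured 128.3, 86.7, 77.4 and 84.2 CPM in VNS libraries 1 to 4, against 172.8, 248.6 and 70.4 CPM in control libraries 1 to 3. As with Gad1, control libraries 1 and 2 were above every VNS library and control library 3 below every one. VNS library 1 was the highest VNS library for Gad2 and the lowest for Gad1. The mean was 94.2 ± 23.1 CPM in VNS libraries and 163.9 ± 89.4 CPM in control libraries (SD, n = 4 and 3). On the log2 scale VNS over control came to -0.80 (SE 0.38, adjusted p = 0.41, edgeR quasi-likelihood test).

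Slc32a1 is a record of 3 exons on chromosome 3, from 160500062 to 160504727 on the minus strand of rn5. Its orientation differs between rn5 and GRCr8. Its level was 71.3, 71.4, 48.8 and 69.0 CPM in VNS libraries 1 to 4, and 112.8, 171.9 and 55.3 CPM in control libraries 1 to 3. Control libraries 1 and 2 were again above every VNS library, while control library 3 lay between VNS library 3 and the other 3 VNS libraries. The mean was 65.1 ± 10.9 CPM in VNS libraries and 113.3 ± 58.3 CPM in control libraries (SD, n = 4 and 3). The log2 fold change was -0.80 (SE 0.34, adjusted p = 0.40, edgeR quasi-likelihood test).

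Slc6a11 is a record of 14 exons on chromosome 4, from 209399633 to 209516846 on the plus strand. It measured 57.4, 122.5, 68.7 and 63.1 CPM in VNS libraries 1 to 4, against 324.5, 547.9 and 70.7 CPM in control libraries 1 to 3. Control library 3 was within the range of the VNS libraries, above 3 of the 4. The other control libraries, 1 and 2, stood at 4.17 and 7.03 times the VNS mean, above every VNS library. The log2 fold change was -2.01 (SE 0.59, adjusted p = 0.40, edgeR quasi-likelihood test). VNS library 2, the highest VNS library, was also the VNS library with the most Slc17a6, at 66.8 CPM.

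Gabbr1 is a record of 23 exons on chromosome 20, from 3996333 to 4025427 on the minus strand. It measured 1082, 993, 1082 and 1039 CPM in VNS libraries 1 to 4, against 1317, 1085 and 966 CPM in control libraries 1 to 3. Control library 1 was highest, and control library 2 exceeded the highest VNS library by less than the counting error. The mean was 1049 ± 42.8 CPM in VNS libraries and 1123 ± 178.6 CPM in control libraries (SD, n = 4 and 3). On the log2 scale VNS over control came to -0.10 (SE 0.17, adjusted p = 0.80, edgeR quasi-likelihood test). The gene makes receptor isoforms with different amino ends, which a count on 1 record cannot separate.

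Gabbr2 is a record of 20 exons on chromosome 5, from 66802348 to 67142203 on the minus strand. Its level was 449.0, 378.5, 402.1 and 284.2 CPM in VNS libraries 1 to 4, and 632.6, 305.9 and 348.8 CPM in control libraries 1 to 3. Here control library 1 was high, whereas control libraries 2 and 3 were each above VNS library 4 and below the other 3 VNS libraries. The mean was 378.4 ± 69.4 CPM in VNS libraries and 429.1 ± 177.5 CPM in control libraries (SD, n = 4 and 3). The log2 fold change was -0.18 (SE 0.28, adjusted p = 0.78, edgeR quasi-likelihood test).

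The spread within a group differed between the genes. Among VNS libraries the coefficient of variation was 4.08% for Gabbr1, 8.40% for Gad1, 16.8% for Slc32a1, 18.3% for Gabbr2, 24.5% for Gad2 and 38.6% for Slc6a11. Among control libraries it was 15.9% for Gabbr1, 41.4% for Gabbr2, 43.3% for Gad1, 51.5% for Slc32a1, 54.6% for Gad2 and 76.0% for Slc6a11. In both groups Gabbr1 varied least and Slc6a11 most. Over all 7 libraries the distance from lowest to highest was 0.45 on the log2 scale for Gabbr1 and 3.24 for Slc6a11.

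Leaving out control libraries changed both size and direction. Without control library 3, whose Neurod6 level was within the range of the VNS libraries, 4 of the 6 genes passed with lower values in VNS libraries, where 10.6% of all 12931 records passed in either direction and 4.41% passed with lower values. In that fit Slc6a11 fell by 2.48 on the log2 scale (SE 0.33, adjusted p = 0.0039, edgeR quasi-likelihood test, 4 VNS against 2 control libraries). Gad2 fell by 1.16 (SE 0.24, adjusted p = 0.020), Slc32a1 fell by 1.12 (SE 0.22, adjusted p = 0.016) and Gad1 fell by 0.81 (SE 0.18, adjusted p = 0.026), by the same edgeR test. Gabbr1 (log2 fold change -0.19, SE 0.17, adjusted p = 0.52) and Gabbr2 (-0.31, SE 0.30, adjusted p = 0.56) did not pass it. This fit compares VNS libraries with the control libraries that lacked Neurod6, so treatment and the makeup of the tissue cannot be told apart in it.

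Without control libraries 1 and 2, every one of the 6 log2 fold changes was positive, and 48.6% of all records had a negative one. The values were 0.28 for Gad1 (SE 0.20), 0.42 for Gad2 (SE 0.29), 0.23 for Slc32a1 (SE 0.25) and 0.13 for Slc6a11 (SE 0.38). For the receptor subunits they were 0.11 for Gabbr1 (SE 0.22) and 0.11 for Gabbr2 (SE 0.26). No gene passed, and 0% of 13111 records did (adjusted p = 1.0 for each of the 6, edgeR quasi-likelihood test), while 0.801% of records had an unadjusted p under 0.05. This fit has 1 control library, which is assumed to vary like the VNS libraries. Without control library 1 alone, Gabbr1 stood at 0.032 and Gabbr2 at 0.21.

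**Figure D2:**
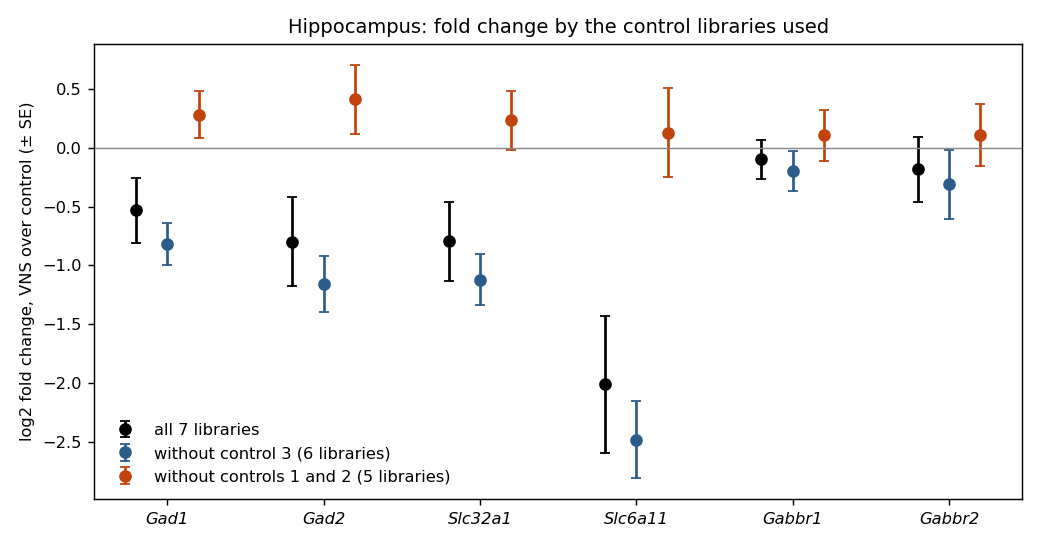
Log2 fold change, VNS over control, of each of the 6 genes in the hippocampus, with bars of 1 SE, in fits over all 7 libraries (black), without control library 3 (blue) and without control libraries 1 and 2 (red). The 4 synthesis and transport genes lie below 0 in the first fits and above 0 in the last, where Gad1 stands at 0.28 and Slc6a11 at 0.13, and the receptor subunits stay near 0.

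Levels were compared between genes per kilobase of record. In VNS libraries Gabbr1 led with 238.5 ± 9.72 CPM per kb, above Gabbr2 with 69.3 ± 12.7, Gad1 with 59.4 ± 4.99, Gad2 with 48.0 ± 11.8, Slc6a11 with 40.3 ± 15.5 and Slc32a1 with 27.3 ± 4.59 CPM per kb (SD, n = 4). Apart from Gabbr1, each gene's VNS range overlapped that of the next gene in this order. In control libraries the order began with Gabbr1 at 255.2 ± 40.6 CPM per kb, followed by Slc6a11 at 162.5 ± 123.4, Gad1 at 85.8 ± 37.1, Gad2 at 83.5 ± 45.6, Gabbr2 at 78.6 ± 32.5 and Slc32a1 at 47.6 ± 24.5 CPM per kb (SD, n = 3). Each range there overlapped that of the next gene. Gabbr1 ranked first in 6 of 7 libraries. In control library 2 it was second, at 246.6 CPM per kb against 283.1 for Slc6a11. Slc32a1 ranked last in 5 of 7 libraries.

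Ratios of reads between functional partners do not depend on how a library is scaled, and groups were compared with a two-sided exact permutation test, adjusted over 4 ratios of which 3 are given. With 4 against 3 libraries there are 35 splits, and the smallest p this test allows is 0.0571. The log2 ratio of Gad1 to Gad2 was 0.42, 1.26, 1.36 and 1.11 in VNS libraries 1 to 4, and 0.68, 0.66 and 1.14 in control libraries 1 to 3. VNS library 1 was the lowest of the 7, with the other VNS libraries near or above control library 3, and the means differed by 0.21 (exact permutation p = 0.629, adjusted p = 0.838), or by -0.10 without control libraries 1 and 2. The log2 ratio of Slc32a1 to Gad1 was -1.27, -1.54, -2.02 and -1.40 in VNS libraries 1 to 4, and -1.29, -1.19 and -1.49 in control libraries 1 to 3, a difference in means of -0.24 (exact permutation p = 0.343, adjusted p = 0.686) that came to -0.071 without control libraries 1 and 2. VNS library 3 was the lowest, and the other 3 VNS libraries overlapped the controls. For the receptor, the log2 ratio of Gabbr1 to Gabbr2 was 1.27, 1.39, 1.43 and 1.87 in VNS libraries 1 to 4, and 1.06, 1.83 and 1.47 in control libraries 1 to 3. Both groups spanned nearly the same range, and the means differed by 0.039 (exact permutation p = 0.914, adjusted p = 0.914), or by 0.020 without control libraries 1 and 2.

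**Figure D3:**
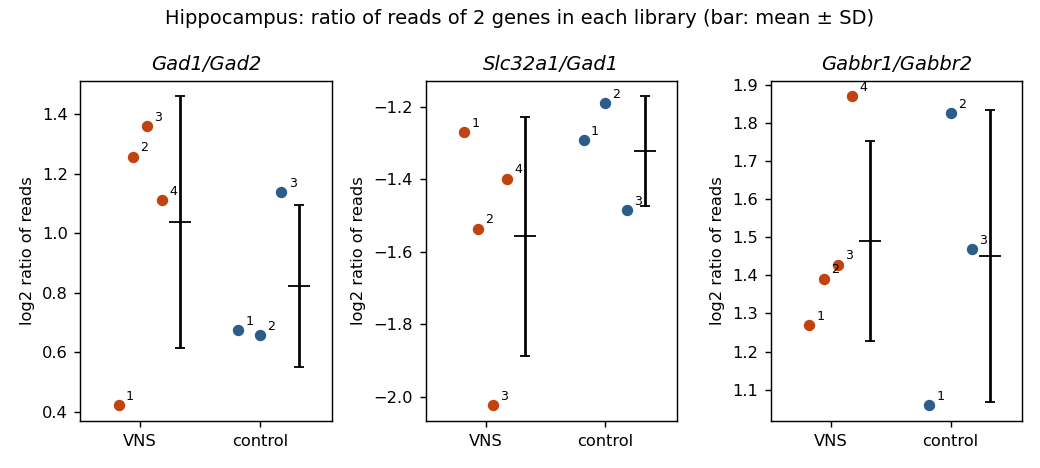
Log2 ratio of reads of a pair of genes within each of the 7 hippocampal libraries, with VNS libraries in red and control libraries in blue and bars of mean ± SD (n = 4 VNS and 3 control). VNS and control libraries overlap in each of the 3 panels, and VNS library 1 is lowest for Gad1 over Gad2, at 0.42.

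Genes around the 6 in the same pathway were described in 3 lists. No member of any of them passed, which is also the share over all records (0%). Among the other genes of GABA uptake and breakdown, 7 of 8 tested had a negative log2 fold change, with a median of -0.38, and 2 had an unadjusted p under 0.05. Over all records these shares were 50.8% and 12.1%. Abat, the transaminase that begins GABA breakdown, measured 107.5, 153.3, 107.5 and 133.3 CPM in VNS libraries 1 to 4, against 243.8, 316.1 and 149.8 CPM in control libraries 1 to 3 (log2 fold change -0.91, SE 0.26, adjusted p = 0.40, edgeR quasi-likelihood test). Every VNS library was below control libraries 1 and 2, and control library 3 was below VNS library 2. Aldh5a1, the dehydrogenase that follows Abat, was at 168.8 ± 14.3 CPM in VNS libraries and 227.4 ± 39.0 CPM in control libraries (SD, n = 4 and 3, log2 fold change -0.43, SE 0.16). The betaine and GABA transporter gene Slc6a12 averaged 0.12 CPM in VNS libraries and 0.48 CPM in control libraries (log2 fold change -1.58, SE 0.78). These values rest on 0 to 8 reads in each VNS library and 8 to 44 in each control library. Without control library 3, 2 of the 8 passed, both lower, where 4.41% of all records passed with lower values, and the median was -0.55. Without control libraries 1 and 2, 0 passed and the median was -0.16, with Abat at -0.26, Aldh5a1 at -0.14 and Slc6a12 at -0.26 on the log2 scale.

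Glutamate is the substrate of the decarboxylases, and 10 of 12 tested records of its supply and that of glutamine had a negative log2 fold change (median -0.24), against 50.8% of all records, and 3 had an unadjusted p under 0.05, against 12.1%. These were the neuronal glutamine carriers Slc38a2 (log2 fold change -0.68, SE 0.20) and Slc38a1 (-0.92, SE 0.27) and the transaminase Got1 (-0.55, SE 0.23). Slc38a1 measured 69.5, 100.3, 61.6 and 88.3 CPM in VNS libraries 1 to 4, against 198.6, 162.0 and 93.2 CPM in control libraries 1 to 3. Here too control library 3 lay within the VNS range. Glul, the glutamine synthetase of astrocytes and oligodendrocytes, was at 1191 ± 167.4 CPM in VNS libraries and 1336 ± 159.4 CPM in control libraries (SD, n = 4 and 3), and was named after its values were seen. Without control library 3, 3 of the 12 passed, against 10.6% of all records, and the median was -0.35. Without control libraries 1 and 2, 0 passed and the median was -0.10, with Slc38a2 at -0.23, Slc38a1 at -0.23, Got1 at 0.057 and Glul at -0.13 on the log2 scale.

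Partners and effectors of the GABA-B receptor did not share a direction. Of 23 tested records of 22 genes, 14 had a positive and 9 a negative log2 fold change (median 0.079), and 3 had an unadjusted p under 0.05, a share near the 12.1% of all records. Adcy8, an adenylyl cyclase, had a log2 fold change of -1.03 (SE 0.39), whereas the G protein subunit genes Gng3 and Gnao1 had values of 0.97 (SE 0.38) and 0.35 (SE 0.15). Gng3 measured 44.8, 32.7, 106.7 and 50.5 CPM in VNS libraries 1 to 4, against 27.8, 34.8 and 26.7 CPM in control libraries 1 to 3, so that VNS library 3 alone stood well above the rest. Kcnj6, a channel subunit that the receptor opens through G proteins, was added to these after its values were seen. It measured 547.2, 300.4, 363.3 and 316.8 CPM in VNS libraries 1 to 4, against 164.8, 129.1 and 346.3 CPM in control libraries 1 to 3 (log2 fold change 0.84, SE 0.37, adjusted p = 0.40, edgeR quasi-likelihood test). Every VNS library was above control libraries 1 and 2 for Kcnj6, and control library 3 was within their range. Without control library 3, 3 of the 23 passed (2 higher and 1 lower, median 0.12), a share near the 10.6% of all records. Without control libraries 1 and 2 none did and the median was -0.049, with Adcy8 at -0.086, Gng3 at 1.09, Gnao1 at 0.13 and Kcnj6 at 0.13 on the log2 scale.

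Markers of cell types also differed between libraries, in some lists more than in others. A bulk library cannot tell fewer cells of a type from less RNA per cell. Forebrain excitatory markers (9 of 10 genes with a record) summed to 3388 to 5214 CPM in VNS libraries, and to 720, 236 and 4008 CPM in control libraries 1 to 3. Thalamic excitatory markers (6 of 10 genes) summed to 84.8 to 193.3 CPM in VNS libraries, and to 1785, 412 and 98.5 CPM in control libraries 1 to 3. Each of these genes had reads in every library. Prkcd, abundant in thalamus, was at 6.19 to 41.2 CPM in VNS libraries, and at 794, 11.8 and 10.2 CPM in control libraries 1 to 3, so control libraries 1 and 2 were not alike. In control library 2, Slc17a6 alone made up 347.4 of the 412 CPM of the thalamic sum. Prkcd, Synpo2 and Plekhg1 did not exceed the VNS range in that library, whereas Lef1 and the tested record of Cacna1g did.

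Another list held markers chosen for neurons that make GABA in diencephalon and midbrain. Not all of them mark such neurons alone, since Otx2 is also in the list of choroid plexus markers. Diencephalic and midbrain GABA neuron markers (14 of 14 genes) summed to 12.6, 39.9, 18.9 and 14.9 CPM in VNS libraries 1 to 4, and to 140.1, 165.5 and 14.7 CPM in control libraries 1 to 3. Of these 14 genes, 2 to 6 had no read in a given VNS library, against 0, 1 and 5 in control libraries 1 to 3. Zic1, a transcription factor gene, was at 2.73 to 10.1 CPM in VNS libraries, and at 69.6, 14.5 and 2.92 CPM in control libraries 1 to 3. Glra1, a glycine receptor subunit, was at 0.64 to 3.06 CPM in VNS libraries, and at 18.8, 37.1 and 0.21 CPM in control libraries 1 to 3. All 12 tested records of the list had a negative log2 fold change, against 50.8% of all records, but not every gene followed the sum. Slc6a5, Gata2 and Gata3 were chosen after their values were seen. The glycine transporter gene Slc6a5 was at 0.76 to 6.89 CPM in VNS libraries, and at 4.36, 3.90 and 4.66 CPM in control libraries 1 to 3. Gata2 was at 2.68 to 6.50 CPM in VNS libraries, and at 4.09, 8.35 and 2.36 CPM in control libraries 1 to 3. Gata3 was at 0 to 2.33 CPM in VNS libraries, and at 1.63, 11.3 and 0 CPM in control libraries 1 to 3. The sum was high in the libraries where Slc6a11, Gad1, Gad2 and Slc32a1 were high, and within the VNS libraries it was highest in library 2, as was Slc6a11. Its part in the values of the 6 genes was not tested.

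Markers of cortical and hippocampal interneurons (22 of 23 genes) summed to 628 to 739 CPM in VNS libraries, and to 1252, 885 and 590 CPM in control libraries 1 to 3. Their best measured members did not move together. Kcnc1, a potassium channel of fast-spiking cells, was at 75.2 to 96.9 CPM in VNS libraries, and at 310.4, 231.6 and 77.7 CPM in control libraries 1 to 3. Reln, which Cajal-Retzius cells and some interneurons secrete, was at 137.9 to 215.8 CPM in VNS libraries, and at 36.4, 212.4 and 140.9 CPM in control libraries 1 to 3. Striatal projection neuron markers (13 of 13 genes, with Tac1 at 0 throughout) summed to 214 to 314 CPM in VNS libraries, and to 354, 149 and 289 CPM in control libraries 1 to 3. Tac1 has more than 1 record, and reads that records share were assigned to none, so its 0 need not mean a lack of expression.

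Glial, endothelial and choroid plexus markers differed in pattern between lists. Astrocyte markers (12 of 12 genes) summed to 3317 to 3795 CPM in VNS libraries, and to 3393, 3986 and 3467 CPM in control libraries 1 to 3. Members of the list differed in direction, and of those given here Agt and Aldoc were chosen after their values were seen. Gfap was at 755 to 1996 CPM in VNS libraries, and at 777, 478 and 1018 CPM in control libraries 1 to 3. Agt was at 82.3 to 204.2 CPM in VNS libraries, and at 310.6, 623.9 and 114.9 CPM in control libraries 1 to 3. Aldoc was at 446.7 to 734.9 CPM in VNS libraries, and at 923, 1216 and 696 CPM in control libraries 1 to 3. Agt and Aldoc were thus highest in control libraries 1 and 2, as was Slc6a11, but not every member of the list was. S100b was at 587 to 982 CPM in VNS libraries, and at 781, 843 and 836 CPM in control libraries 1 to 3. Of the 10 tested records of the list, 6 had a negative and 4 a positive log2 fold change, against 50.8% negative over all records. Aqp4 and Slc1a3 were counted at 0 in all 7 libraries. Each has several records, and reads that records share were assigned to none, so this 0 need not mean a lack of expression. Slc1a2, with 3 records, and the oligodendrocyte marker Mbp, with 6, can lose reads in the same way, so the sums of their lists may be too low. Oligodendrocyte markers (10 of 10 genes) summed to 2165 to 5258 CPM in VNS libraries, and to 8111, 6689 and 4587 CPM in control libraries 1 to 3. That sum was highest in control libraries 1 and 2, as were Gad1, Gad2, Slc32a1 and Slc6a11. Cnp, an enzyme gene of myelin, was at 237.0 to 594.5 CPM in VNS libraries, and at 789.8, 624.0 and 445.5 CPM in control libraries 1 to 3. Microglia markers summed to 207 to 241 CPM in VNS libraries, and to 258, 197 and 229 CPM in control libraries 1 to 3. Endothelial markers summed to 142 to 214 CPM in VNS libraries, and to 253, 241 and 192 CPM in control libraries 1 to 3. Choroid plexus markers summed to 1.22 to 7.33 CPM in VNS libraries, and to 34.1, 32.9 and 3.25 CPM in control libraries 1 to 3. Ttr was at 0.35 to 3.08 CPM in VNS libraries, and at 20.2, 0.43 and 0.79 CPM in control libraries 1 to 3. Otx2 was at 0 to 3.30 CPM in VNS libraries, and at 3.54, 25.3 and 0.041 CPM in control libraries 1 to 3. It made up most of the sum in control library 2 and is also in the diencephalic and midbrain list. What part any of these lists has in the values of the 6 genes was not tested.

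**Figure D4:**
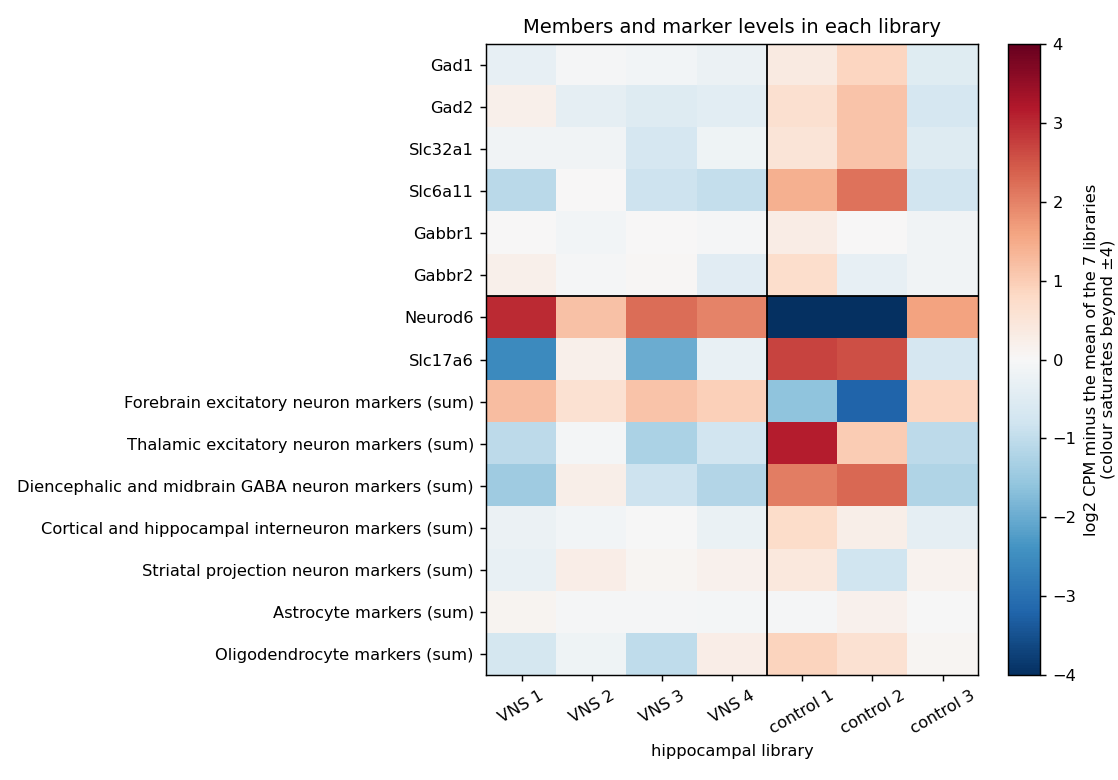
Log2 CPM of each gene or summed marker list in each of the 7 hippocampal libraries, minus its mean over those libraries, with VNS libraries on the left and control libraries on the right (colour saturates beyond 4 in either direction). Rows above the line are the 6 genes. Control libraries 1 and 2 are high for Slc6a11 and for diencephalic and midbrain GABA neuron markers, and low for Neurod6.

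Likeness of pattern was measured as the root mean square difference of centred log2 CPM (pseudocount 0.5 CPM) over the 7 libraries, which share library type but differ in depth. Among the 6, Gad2 and Slc32a1 were most alike, at 0.20, with 4 records nearer to Gad2 than Slc32a1 was and 15 nearer to Slc32a1 than Gad2 was. Gad1 was at 0.26 from Slc32a1 and at 0.33 from Gad2. Slc6a11 was farther from all of them, at 0.70 from Slc32a1. The receptor subunits were at 0.27 from each other, with 4933 records nearer to Gabbr1 than Gabbr2 was and 314 nearer to Gabbr2 than Gabbr1 was.

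The records most like each gene over all 12728 tested were as follows, as a description with no test. Armh4 was nearest both to Gad2 (0.099) and to Slc32a1 (0.14). For Gad2 it was followed by Podxl2 (0.16) and Vamp1 (0.18), a synaptic vesicle protein gene, and for Slc32a1 by Hs6st2 (0.14) and Rpp25 (0.15). Unc119 (0.080), Dpysl3 (0.091) and St8sia4 (0.095) were nearest to Gad1. Slc6a11 was nearest to Foxb1 (0.18), Pcp4l1 (0.21) and Clcn5 (0.22). Foxb1, a transcription factor gene of the developing diencephalon, was at 0 in VNS libraries 1, 3 and 4 and at 0.49 CPM in VNS library 2, and at 2.32, 5.22 and 0 CPM in control libraries 1 to 3. At such low values its likeness to Slc6a11 depends on the pseudocount. Gabbr1 was nearest to Rpap2 (0.035), whose record overlaps one on the other strand, Capn5 (0.048) and Abcg4 (0.050), and Gabbr2 to Ccna1 (0.13) and Ndufaf4 (0.14).

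In the cortex each of the 6 records reached 10 reads in at least 1 library, but none exceeded 52. The file header gives strand option 1 for the cortex counts. With the stranded kit named in the labels the first read is antisense to the transcript, so such a count need not hold the reads of the named gene, and the values are given as counts of the record only. Gad1 had 13, 6, 33 and 17 reads in VNS libraries 1 to 4, and 21, 18, 9 and 14 in control libraries 1 to 4. Gabbr1 had 41, 39, 52 and 37 reads in VNS libraries 1 to 4, and 28, 50, 51 and 25 in control libraries 1 to 4. Gabbr2 had 31, 17, 41 and 23 reads in VNS libraries 1 to 4, and 42, 41, 28 and 12 in control libraries 1 to 4. VNS and control libraries overlapped for each of these 3 records, as for all but 2.29% of records tested, and they were the members with enough reads to be tested.

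On the CPM scale the cortex record of Gad1 was at 48.5 ± 29.7 in VNS libraries and 45.2 ± 16.9 in control libraries, with a log2 fold change of 0.10 (SE 0.42). Gabbr1 was at 121.3 ± 16.3 CPM in VNS libraries and 111.5 ± 39.1 CPM in control libraries (0.12, SE 0.28). Gabbr2 was at 80.1 ± 27.9 CPM in VNS libraries and 89.7 ± 42.2 CPM in control libraries (-0.15, SE 0.36). These are means with SD over 4 libraries each. None of the 3 passed (adjusted p = 1.0 for each, edgeR quasi-likelihood test), where 1 of 3884 records tested did (0.0257%), and none had an unadjusted p under 0.05 (2.39% of records). An interval of 1 SE spans at least 0.28 on either side, so differences of this size, and some larger ones, could be missed at this depth.

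The other 3 records had too few reads in the cortex for a test. Gad2 had 2, 5, 6 and 6 reads in VNS libraries 1 to 4, and 4, 12, 0 and 0 in control libraries 1 to 4. Slc32a1 had 6, 2, 10 and 5 reads in VNS libraries 1 to 4, and 5, 7, 2 and 0 in control libraries 1 to 4. Slc6a11 had 6, 6, 6 and 1 reads in VNS libraries 1 to 4, and 4, 1, 5 and 14 in control libraries 1 to 4. For each of the 3, the VNS and control ranges overlapped. A count of 0 allows up to 3 reads by counting error alone.

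**Figure D5:**
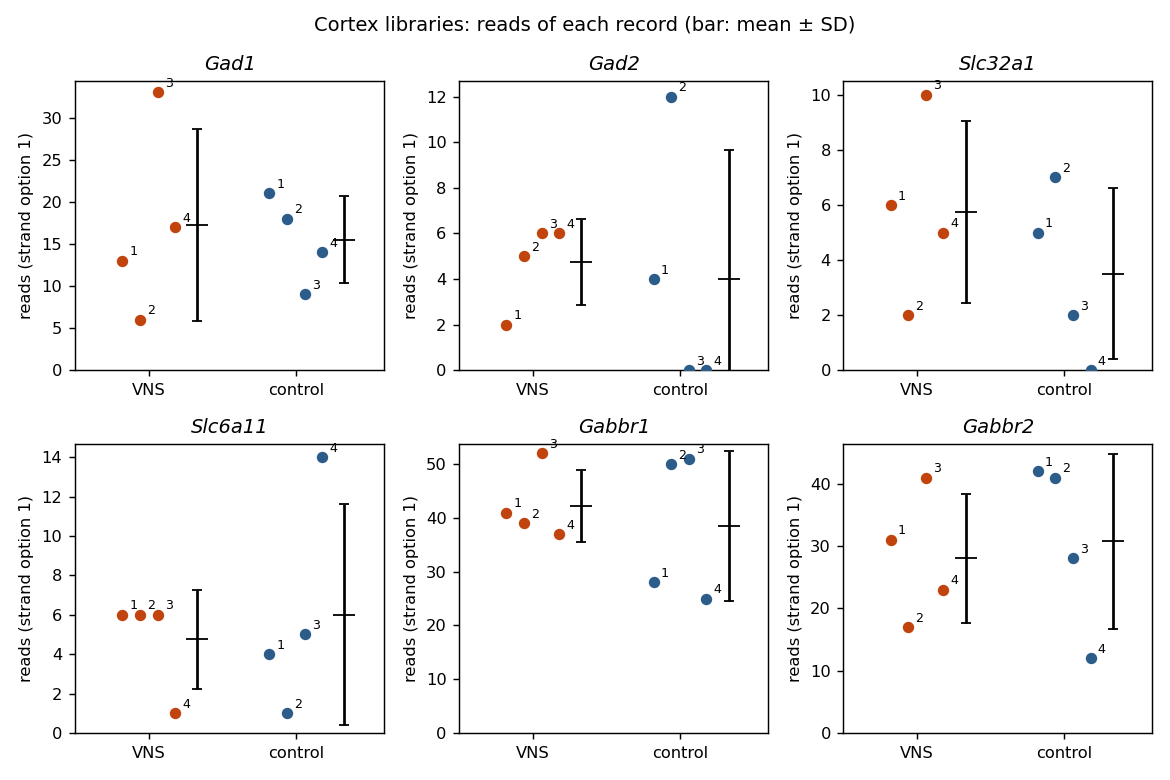
Reads of each of the 6 records in the 8 cortex libraries, counted with strand option 1, with VNS libraries in red and control libraries in blue and bars of mean ± SD (n = 4 each; the axis starts at 0 and hides the lower end of the Gad2 control bar). VNS and control libraries overlap for every record, and no record exceeds 52 reads.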

How the data were processed

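Read counts of 7 hippocampal and 8 cortex libraries were analysed. The authors deposited raw read counts for each RefSeq record, made with featureCounts 1.4.6-p2 on an rn5 annotation, per the file headers. The headers give strand option 1 for the cortex and no strand option for the hippocampus. The submitters' processing notes also name FastQC 0.10.1, Trimmomatic, Bowtie2, SAMtools 0.1.19 and edgeR. How the aligner was set is not given in the sources used here. Counting was per record, so a read that fits more than 1 record of a gene goes to none. Each of the 6 genes has 1 record, which overlaps no other.

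Symbols and promoter windows were taken from RefSeq tables (assembly GRCr8), and coordinates of the records from the count files (rn5). Within each tissue, records were kept with filterByExpr (minimum count 10, minimum total 15), scaled by TMM and tested two-sided with glmQLFit and glmQLFTest in edgeR 4.0.16 (R 4.3.3), with Benjamini-Hochberg adjustment over all records tested and a threshold of 0.05. Fold changes are VNS over control. CPM and ratios were computed from the counts, with an offset of 0.5 counts for ratios, in Python 3.11.15 with scipy 1.17.1. Alternatives were upper-quartile scaling, DESeq2 size factors, a filter of 1 CPM in 3 libraries, no filter, DESeq2 1.42.0, limma-voom (limma 3.58.1), counts summed per symbol, and leaving out ribosomal and 7SL RNA records, records overlapping the other strand, each library in turn, or hippocampal control libraries 1 and 2. The code was tested on simulated data.

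Named were all 6 genes, the 3 pathway genes per list with the smallest p, the 2 markers per list with the highest level (for some lists the sum alone is given), the 3 records most like each gene, and Neurod6, Slc17a7 and Slc17a6. Some genes that this rule names, and 1 ratio, are not reported here. The members, lists and tests were chosen with earlier results of these data known, and counts per list without some control libraries were added after seeing the data. The name of 1 cortex column carries an extra last letter compared with the sample it was matched to.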

Additional observations from a re-analysis of the deposited data

Results flagged for a closer look

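In 3 of 22 groups of 4 libraries checked for the 6 genes and the other GABA transporters, 1 library lay apart from the other 3, its gap to the nearest one, as a share of the whole range, exceeding Dixon's 95% critical value. Chance alone gives this in about 1 in 20 groups. Slc32a1 in hippocampal VNS library 3 was at 48.8 CPM, where the other VNS libraries lay at 69.0 to 71.4 CPM. It rests on 240 reads (95% Poisson interval 42.8 to 55.4 CPM, counting error only) in the library with 74.3% ribosomal and 7SL RNA counts. The Gad2 record in cortex VNS library 1 was at 6.21 CPM, against 14.9 to 16.5 CPM in the other VNS libraries, from 2 reads (interval 0.752 to 22.4 CPM). The Slc6a11 record in cortex VNS library 4 was at 2.75 CPM, against 16.2 to 18.6 CPM in the others, from 1 read (interval 0.0696 to 15.3 CPM).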

How the results depend on the processing

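In the hippocampus, 0 records passed with all 7 libraries, and 17 with DESeq2 (none of the 6 genes). Leaving out single libraries gave 0 to 1377, the highest without control library 3. Over these the log2 fold change ranged from -0.81 to -0.18 for Gad1, -1.16 to -0.37 for Gad2, -1.12 to -0.36 for Slc32a1, -2.48 to -1.34 for Slc6a11, -0.19 to 0.032 for Gabbr1 and -0.38 to 0.21 for Gabbr2. Without control libraries 1 and 2 the values were 0.28, 0.42, 0.23, 0.13, 0.11 and 0.11 in that order, the median over the 6 genes was 0.18 and that of GABA-B partners -0.049. The log2 ratio of Gad1 to Gad2 then differed by -0.10, and by 0.11 to 0.42 without single libraries. That of Gabbr1 to Gabbr2 ranged from -0.16 to 0.23, negative without VNS library 4 (-0.088) or control library 1 (-0.16), and that of Slc32a1 to Gad1 from -0.33 to -0.079. Another scaling, filter or test, counts per symbol, and leaving out ribosomal or overlapping records kept the sign of all 6 genes and none of the 6 passed. In the cortex 1 record passed, 5 with no filter, 6 with the 1 CPM filter, 0 with limma-voom and 0 to 4 without single libraries (0 without VNS library 1 or 4 or control library 2, 3 or 4, and 4 without control library 1). The Gad1 record stood at -0.0075 with limma-voom. Without single libraries it ranged from -0.32 to 0.36, Gabbr1 from -0.026 to 0.36 and Gabbr2 from -0.39 to 0.13. No paired analysis was possible because the labels give the groups no shared replicate numbers. Cortex depth, at most 52 reads per record, limits any statement there. The cause of these changes was not tested.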
